A study of Mus musculus with 60 samples.

Results

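The clonotypes described here were found repeatedly in the gut of mice that received allogeneic T cells in a model of graft-versus-host disease (GVHD) and were listed at 0 in every spleen library of the same cell type. They were chosen by a fixed rule in the T cell receptor beta (TCRB) tables of CD4 and CD8 T cells, each table on its own. A row, defined by its CDR3 protein sequence together with a V and a J segment, was taken when its frequency was 0 in all 3 spleen libraries and above 0 in at least 3 of the 6 gut libraries. This gave 1978 of the 85775 clonotypes of the CD4 table and 3574 of the 82447 clonotypes of the CD8 table, or 5552 of 168222 rows in all. Since gut and spleen values chose them, their gut and spleen values are given as a description and were not tested. A leave-out comparison further below does use gut values, with clonotypes chosen again without the library looked at. It keeps the same condition on spleen. The same rule in the 6 liver libraries gave 1727 CD4 and 1410 CD8 clonotypes, which are called liver-recurrent and serve as the comparison.

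The study examined GVHD in mice whose donor T cells lacked the transcription factor STAT3, alone or together with the inhibitory receptor PD-1, and in WT controls. In GVHD, donor T cells attack the tissues of a transplant recipient. Whether the recipients of each group had GVHD is not in the data used here. The recipients were wild-type (WT) BALB/c mice after lethal irradiation. Every group had the same marrow graft, depleted of T cells and of WT C57BL/6 origin, and the groups differed in the genotype of the added C57BL/6 T cells (CD90.2+), which was WT, STAT3-/- (STAT3ko) or STAT3-/-PD-1-/- (STAT3koPD-1ko). The STAT3 gene was removed by a Cre recombinase driven from the CD4 promoter, which acts in both CD4 and CD8 T cells during thymic development, whereas PD-1 was missing from all cells of the donor. On day 6 after hematopoietic cell transplantation (HCT), lymphocytes of 3 recipients were pooled for each liver or gut library, and donor-type (H-2Kb+) T cells positive for TCRβ and for either CD4 or CD8 were sorted for RNA. The 3 spleen libraries of a table, 1 for each genotype, are titled as naïve, and the study describes donor T cells taken before HCT. Each table further held 2 gut and 2 liver libraries for each genotype, numbered 1 and 2. CD4 and CD8 expression rests on the sort, since the tables hold no other genes.

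A TCR beta chain is assembled in the thymus from a V, a D and a J segment of a single locus, and bases are trimmed and added at the joints at random. The joined stretch encodes the CDR3 loop, which lies over the peptide when the receptor binds a peptide held by a major histocompatibility complex (MHC) molecule. Sequences that need few added bases are assembled more readily and recur in many animals, and such recurrent receptors are called public. Some V segments are also recognised as such: in BALB/c mice, superantigens of endogenous mammary tumour viruses, presented by the class II molecule I-E, bind T cells that carry TRBV26 (Vβ3), TRBV12-1 or TRBV12-2 (Vβ5), TRBV16 (Vβ11) or TRBV15 (Vβ12). C57BL/6 mice lack I-E, so that donor T cells with these segments are not removed in the donor.

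The values are fractions of the reads of a library and carry no read count, so the depth behind them is unknown. A value of 0 says only that a clonotype was listed at 0, and less RNA per cell cannot be told apart from fewer cells. The tables list only clonotypes that were counted in at least 2 joined libraries. The listed clonotypes made up 81.5% to 93.8% of the reads of the gut libraries numbered 1 but 47.8% to 58.0% of those numbered 2. The libraries stood apart by number in the liver too. Of the clonotypes found in a liver library numbered 1, 28.2% to 38.3% were absent from spleen, against 72.0% to 76.2% in those numbered 2. Several results that rest on these libraries are given for each number.

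Representative members of the CD4 table are shown first, because the rest of the text refers to them. The lines give the part of the deposited nucleotide sequence from the conserved cysteine to the end of the CDR3, with bases that match neither the germline V nor the germline J segment in capitals. The first 5 were found in all 6 gut libraries, the next pair had the highest mean gut frequencies, and the last was found in no liver library. Each amino acid clonotype has a single nucleotide sequence in the deposited table, so other codings of the same CDR3 are not visible.
CD4 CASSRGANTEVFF (TRBV26, TRBJ1-1): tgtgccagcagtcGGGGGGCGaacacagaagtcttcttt
CD4 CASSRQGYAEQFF (TRBV26, TRBJ2-1): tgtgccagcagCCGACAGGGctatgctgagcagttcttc
CD4 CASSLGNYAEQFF (TRBV26, TRBJ2-1): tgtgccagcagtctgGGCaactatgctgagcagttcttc
CD4 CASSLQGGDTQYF (TRBV14, TRBJ2-5): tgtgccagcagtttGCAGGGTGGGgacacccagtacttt
CD4 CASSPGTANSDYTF (TRBV16, TRBJ1-2): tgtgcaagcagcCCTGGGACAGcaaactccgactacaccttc
CD4 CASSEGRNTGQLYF (TRBV13-1, TRBJ2-2): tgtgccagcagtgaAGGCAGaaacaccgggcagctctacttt
CD4 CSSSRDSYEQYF (TRBV23, TRBJ2-7): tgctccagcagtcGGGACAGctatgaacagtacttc
CD4 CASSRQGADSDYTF (TRBV12-2, TRBJ1-2): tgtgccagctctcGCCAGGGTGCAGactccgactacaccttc
In the CD8 table, the first 4 were found in all 6 gut libraries, the fifth had the highest mean gut frequency, and the last was found in all 6 gut libraries and in no liver library.
CD8 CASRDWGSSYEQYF (TRBV14, TRBJ2-7): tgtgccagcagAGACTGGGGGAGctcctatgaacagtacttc
CD8 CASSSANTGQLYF (TRBV15, TRBJ2-2): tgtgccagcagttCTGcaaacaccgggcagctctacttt
CD8 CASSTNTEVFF (TRBV12-2, TRBJ1-1): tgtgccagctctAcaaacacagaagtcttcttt
CD8 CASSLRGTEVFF (TRBV26, TRBJ1-1): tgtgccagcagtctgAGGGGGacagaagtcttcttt
CD8 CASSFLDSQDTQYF (TRBV14, TRBJ2-5): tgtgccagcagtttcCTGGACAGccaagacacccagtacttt
CD8 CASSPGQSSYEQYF (TRBV26, TRBJ2-7): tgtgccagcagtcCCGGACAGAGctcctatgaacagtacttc
The capitals, which hold the D segment and added bases, run from 1 to 12 bases in these lines. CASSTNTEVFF carried a single base that matched neither segment, and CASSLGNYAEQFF carried 3. For almost all TRBV26 clonotypes, 17777 of 17815 in the CD4 table, the deposited CDR3 began upstream of the conserved cysteine, within the germline V segment. Lengths and sequences of TRBV26 clonotypes are given here from the cysteine onward. TRBV26 lies at chr6:41227505-41227993 on the plus strand (GRCm38, GENCODE annotation), where it is annotated as a TCR V gene.

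Recurrence was mostly at the lower limit. In CD4, 1477 members (74.7%) were found in exactly 3 gut libraries, 404 in 4, 87 in 5 and 10 in all 6. In CD8, 2419 (67.7%) were found in 3, 805 in 4, 280 in 5 and 70 in all 6. Just outside the rule, 6493 CD4 and 9465 CD8 clonotypes absent from spleen were found in exactly 2 gut libraries. The members were 3.75% of the clonotypes absent from spleen in CD4 and 6.65% in CD8. The CD8 count exceeded the CD4 count by more in the libraries numbered 2 than in those numbered 1. In at least 2 of the 3 gut libraries of number 1, an alternative chosen after seeing the data, there were 5002 CD8 and 4730 CD4 clonotypes, whereas for number 2 there were 3572 and 957. Without WT gut numbered 1, the CD4 count fell from 1978 to 823. The liver rule gave fewer clonotypes in CD8 than in CD4 (2.62% against 3.28% of those absent from spleen).

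Members were scarce one by one and made up a small part of a gut library together. The median member had a mean gut frequency of 0.00170% of reads in CD4 and 0.00140% in CD8. Above a mean of 0.01%, there were 85 CD4 and 67 CD8 members. Summed over all CD4 members, the frequency in the gut libraries numbered 1 was 4.57% in WT, 4.83% in STAT3ko and 5.60% in STAT3koPD-1ko, and in those numbered 2 it was 5.53%, 7.61% and 6.34%. For CD8 members it was 6.26%, 5.82% and 7.76% in the libraries numbered 1 and 8.77%, 10.6% and 8.46% in those numbered 2. The CD8 sums numbered 2 all lay above those numbered 1, whereas the CD4 sums overlapped. As a share of the listed reads only, neither overlapped: the CD4 sums were 5.47% to 6.87% for number 1 and 11.6% to 15.5% for number 2, and the CD8 sums were 6.34% to 9.53% and 15.9% to 18.3%. The 10 members with the highest mean gut frequency held 7.5% of this sum in CD4 and 6.68% in CD8.

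A member's frequency was rarely even over the gut libraries. The gut library with the highest value held more than 50% of a member's summed gut frequency for 1366 CD4 members (69.1%) and 2499 CD8 members (69.9%). It held more than 90% for 112 CD4 and 150 CD8 members. In CD8, this library carried the number 2 for 2113 members (59.1%), and in CD4 for 946 (47.8%).

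The number of members found differed widely between libraries. In the CD4 gut libraries numbered 1, 81.9% of members were found in WT, 67.2% in STAT3ko and 71.7% in STAT3koPD-1ko. In those numbered 2 the values were 57.5%, 28.7% and 23.7%, so that the 3 libraries numbered 1 were all higher. CD8 members were spread more evenly, between 44.8% (STAT3ko, number 2) and 65.6% (STAT3koPD-1ko, number 1) of members in a gut library. Only 7 CD4 members were found in no gut library numbered 1, whereas 360 were found in no library numbered 2. In CD8 these counts were 74 and 192.

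**Figure D1:**
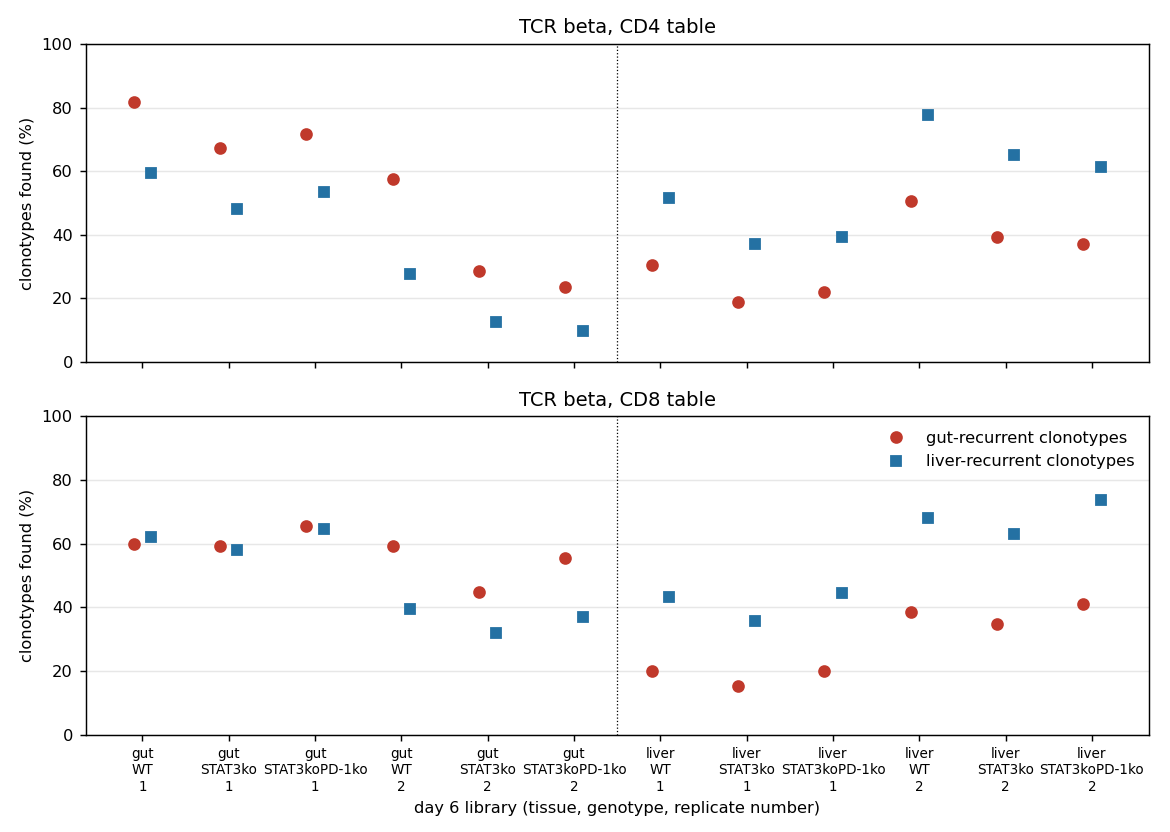
Percentage of gut-recurrent (circles) and liver-recurrent (squares) clonotypes found in each day 6 library (x axis: tissue, genotype, replicate number), for the CD4 table above and the CD8 table below; each point is a single library. Values to the left of the dotted line chose the gut-recurrent clonotypes and values to the right chose the liver-recurrent ones; in CD8, the gut libraries numbered 1 held 58.2% to 64.5% of the liver-recurrent clonotypes, about the share of the gut-recurrent ones.

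Most members were also found in liver, which the rule had not used. In CD4, 88.7% of members were found in at least 1 liver library, against a background of 73.2% for all clonotypes absent from spleen and found in at least 2 gut libraries. In CD8 the share was 85.6%, against a background of 69%. Over all clonotypes absent from spleen the share in liver was 90.5% in CD4 and 87.7% in CD8, slightly above that of the members. This wider set includes clonotypes of fewer than 2 gut libraries, which have to be in another library to be listed at all and were in liver at 93.8% in CD4 and 93.7% in CD8. The members thus showed no excess in liver over all clonotypes absent from spleen. Among clonotypes of 2 or more gut libraries, the share was higher the more gut libraries held the clonotype. In CD4 it was 68.4% for clonotypes of exactly 2 gut libraries, 86.5% for 3, 94.1% for 4, 98.9% for 5 and 100% for the 10 clonotypes of all 6. In CD8 it was 62.7%, 82.1%, 91.2%, 97.1% and 97.1%. No liver library held 224 CD4 members (11.3%) and 514 CD8 members (14.4%). All 6 liver libraries held 12 CD4 and 7 CD8 members. No CD4 member was in all 12 gut and liver libraries, whereas 4 CD8 members were, among them the TRBV14 clonotype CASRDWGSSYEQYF.

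The gut-recurrent and liver-recurrent clonotypes were partly the same. They shared 627 CD4 clonotypes, 31.7% of the gut set and 36.3% of the liver set, and 824 CD8 clonotypes, 23.1% of the gut set and 58.4% of the liver set. Of the liver-recurrent CD8 clonotypes, only 39 (2.77%) were found in no gut library, and in CD4 165 (9.55%). The mean frequency was higher in gut than in liver for 82.4% of CD4 and 74.7% of CD8 members, a direction that the choice in gut favours. Among liver-recurrent clonotypes it was higher in gut for 40.6% in CD4 and 44.5% in CD8.

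The CD4 members were dominated by TRBV26. This segment was used by 1035 of them (52.3%), compared with 38.6% of liver-recurrent clonotypes and 24.3% of all clonotypes absent from spleen. Its share was 40.5% among clonotypes of exactly 2 gut libraries, 49.8% for 3, 57.9% for 4, 67.8% for 5 and 70% for 6. Among clonotypes in at least 2 of the 3 gut libraries of a single number, an alternative chosen after seeing the data, TRBV26 made up 51.3% for number 1 and 31.7% for number 2. In liver the same choice gave 39.3% and 30.5%, so that gut and liver lay close together for number 2. The TRBV26 members held between 2.48% and 3.38% of the reads of a CD4 gut library. TRBV16 (8.54%) and TRBV23 (7.38%) followed, at shares close to those among all clonotypes absent from spleen (8.84% and 8.10%). TRBV15 made up 4.20%, TRBV12-2 2.63% and TRBV12-1 0.961% of CD4 members, against 4.76%, 2.08% and 1.44% of all clonotypes absent from spleen. Several segments, chosen after their shares were seen, were rarer among the members than among clonotypes absent from spleen. TRBV13-2 made up 0.910% of members against 5.49%, TRBV1 1.62% against 5.25%, and TRBV20 0.202% against 2.60%. The liver-recurrent clonotypes were low in these too, at 1.45%, 2.26% and 0.695%.

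The CD8 members used V segments more evenly. TRBV29 (13.5%), TRBV13-1 (10.5%), TRBV16 (8.42%), TRBV12-1 (8.20%), TRBV14 (8.14%), TRBV12-2 (8.03%), TRBV13-3 (7.67%) and TRBV19 (6.10%) were each used by more than 5% of them. TRBV29, at chr6:41271394-41271881 on the plus strand, made up 10.9% of all CD8 clonotypes absent from spleen and 15% of the liver-recurrent ones. TRBV26 was used by 139 CD8 members (3.89%) and TRBV15 by 2.80%. As in CD4, TRBV13-2 was rarer among members (3.67%) and liver-recurrent clonotypes (4.18%) than among all clonotypes absent from spleen (6.39%).

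The 5 V segments that BALB/c superantigens bind were together used by 68.7% of CD4 members, 61.3% of liver-recurrent CD4 clonotypes and 41.5% of CD4 clonotypes absent from spleen. Among clonotypes without TRBV26, the other 4 made up 34.3%, 37.0% and 22.6%. In CD8 the 5 segments made up 31.3% of members, 28.6% of liver-recurrent clonotypes and 25.4% of those absent from spleen. The share among liver-recurrent clonotypes thus lay near that of the members once TRBV26 was left out. These shares count clonotypes, which are not replicates, and were not tested.

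**Figure D2:**
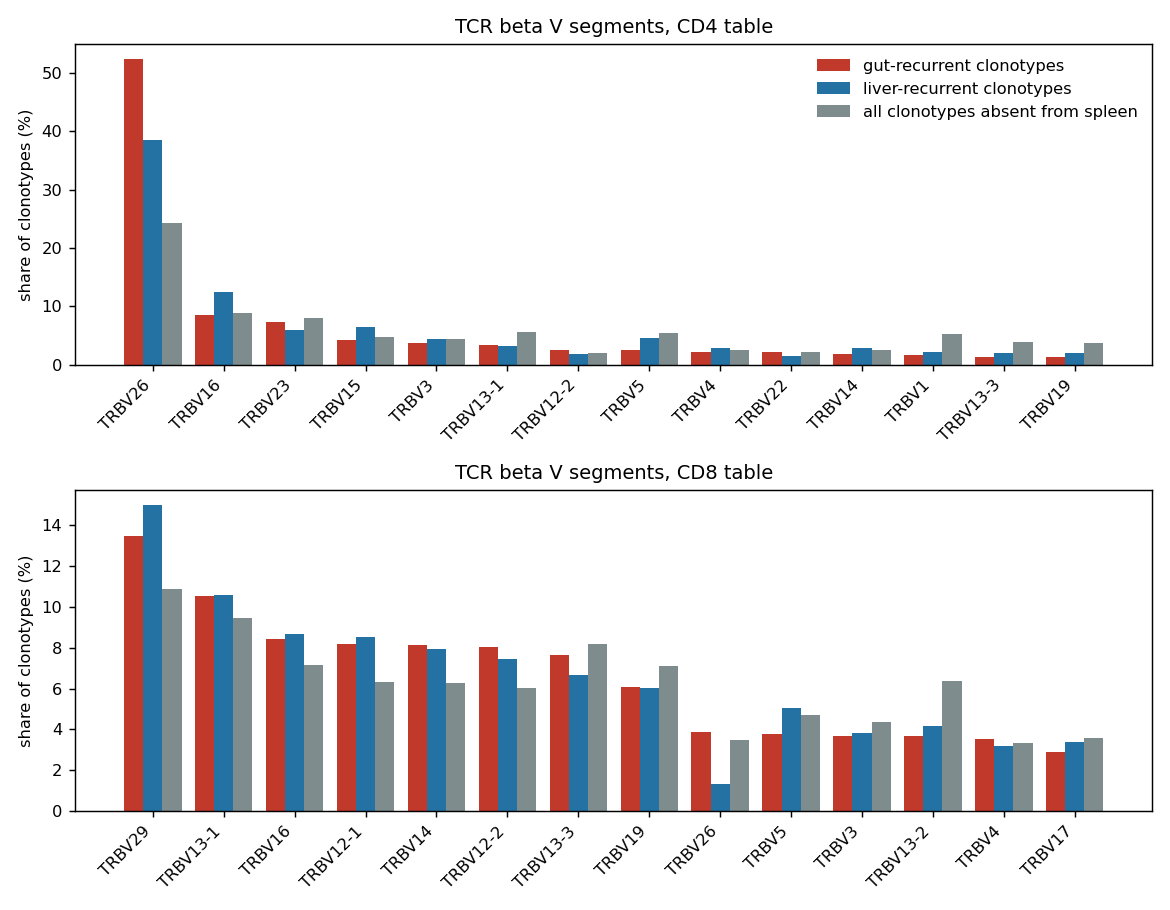
Share of clonotypes (y axis, percent) that used each V segment, among gut-recurrent clonotypes, liver-recurrent clonotypes and all clonotypes absent from spleen, for the 14 segments most common among the members of each table. In CD4, TRBV26 made up 52.3% of the gut-recurrent clonotypes against 24.3% of all clonotypes absent from spleen, and in CD8 the most used segment, TRBV29, made up 13.5%.

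Among J segments, TRBJ1-1 (15.3%) and TRBJ2-7 (14.7%) were most used by CD4 members, followed by TRBJ2-5 (10.6%), TRBJ2-4 (9.76%), TRBJ2-3 (9.40%), TRBJ1-3 (8.85%), TRBJ1-4 (8.85%), TRBJ2-1 (6.98%) and TRBJ2-2 (6.27%). TRBJ1-1 made up 11.3% of CD4 clonotypes absent from spleen. CD8 members used TRBJ2-7 (23.6%), TRBJ2-1 (15.6%), TRBJ1-1 (14.9%), TRBJ2-5 (9.65%), TRBJ2-4 (6.63%), TRBJ1-2 (5.68%), TRBJ2-3 (5.57%) and TRBJ2-2 (5.20%). In both tables TRBJ1-5 was rarer among members (0.961% and 1.43%) than among all clonotypes absent from spleen (2.35% and 2.64%), as it was among liver-recurrent ones (1.27% and 1.49%).

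The members had shorter CDR3 sequences with fewer bases outside the germline. A CDR3 was 13.5 ± 1.08 amino acids long (SD over CD4 members), against 13.9 ± 1.31 for all CD4 clonotypes absent from spleen, and 13.4 ± 1.29 against 13.9 ± 1.47 in CD8. CDR3 sequences of 15 or more amino acids made up 15.8% of CD4 members against 31.3%, and 19.2% of CD8 members against 34.0%. The bases that matched neither germline segment numbered 8.0 on average in CD4 members against 9.91, and 8.65 in CD8 members against 10.3. With 3 or fewer such bases there were 143 CD4 members (7.44%, against 3.18%) and 237 CD8 members (6.74%, against 2.83%). Liver-recurrent clonotypes were alike in this, with a mean of 7.90 bases in CD4 and 8.44 in CD8, and left without TRBV26 the CD4 members had 8.32. Members found in no liver library had more such bases, 8.76 in CD4 and 9.06 in CD8, than those that were also liver-recurrent, 7.5 and 8.26.

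**Figure D3:**
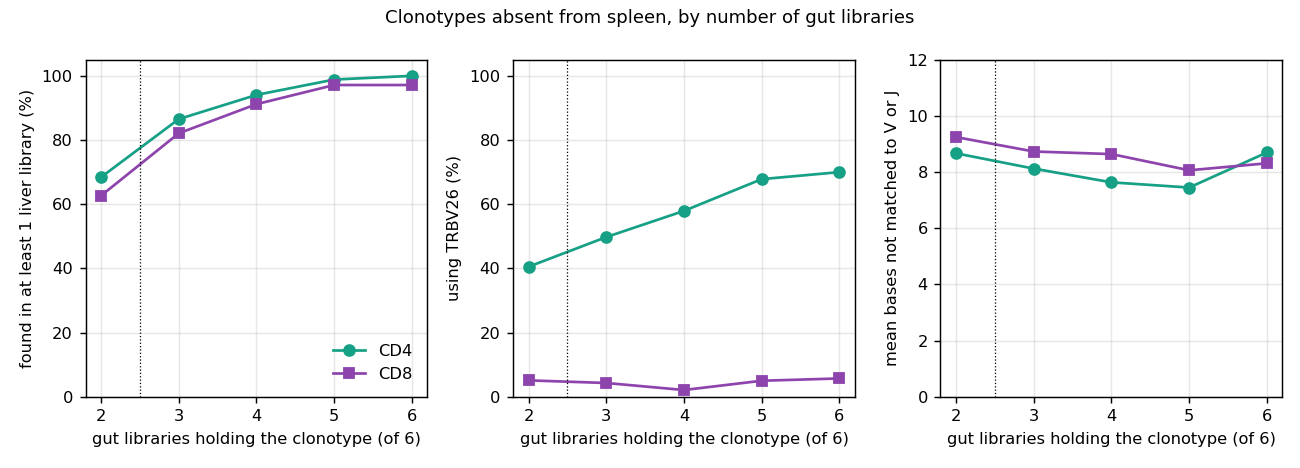
Clonotypes absent from spleen by the number of gut libraries that held them (x axis), with members of the gut-recurrent set to the right of the dotted line: percentage found in at least 1 liver library (left), percentage using TRBV26 (middle) and mean number of bases matching neither V nor J (right). Each point is the value over all clonotypes of that number; the share in liver went from 68.4% to 100% in CD4 and from 62.7% to 97.1% in CD8, and the last CD4 point rests on 10 clonotypes.

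Members often differed from another member by a single amino acid. With the same V, J and length, 883 of the 1940 CD4 members whose CDR3 ran from the cysteine to a closing F, W or L (45.5%) had such a partner, as did 33.7% of liver-recurrent CD4 clonotypes. In CD8 these shares were 26.9% and 17.5%. Larger sets hold more partners, and the CD4 members also share a V segment more often. The largest chain of partners in CD4 linked 39 TRBV26 and TRBJ1-1 members, of which these 4, chosen after their values were seen, show the variable centre.
CD4 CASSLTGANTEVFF (TRBV26, TRBJ1-1): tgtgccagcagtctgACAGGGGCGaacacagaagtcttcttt
CD4 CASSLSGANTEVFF (TRBV26, TRBJ1-1): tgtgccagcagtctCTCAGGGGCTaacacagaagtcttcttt
CD4 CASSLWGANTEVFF (TRBV26, TRBJ1-1): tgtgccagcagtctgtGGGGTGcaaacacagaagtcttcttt
CD4 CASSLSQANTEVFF (TRBV26, TRBJ1-1): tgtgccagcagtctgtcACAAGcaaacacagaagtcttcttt
Between the shared ends, the capitals and the amino acids change at positions in the middle of the loop. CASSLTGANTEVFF was found in 5 gut and 5 liver libraries, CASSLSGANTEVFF in 5 and 4, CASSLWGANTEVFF in 5 and 2, and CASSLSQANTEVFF in 4 and 3. In CD8 the largest chain linked 12 TRBV29 and TRBJ1-1 members.

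Of the 10 CD4 members in all 6 gut libraries, 7 used TRBV26, 2 used TRBV16 and 1 used TRBV14. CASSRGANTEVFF had the highest mean gut frequency of these. It made up 0.00600% of reads in WT, 0.00705% in STAT3ko and 0.0123% in STAT3koPD-1ko gut numbered 1, and 0.00759%, 0.00601% and 0.0762% in those numbered 2. The STAT3koPD-1ko library numbered 2 was above the other 5, which lay close together. In liver it was found in 5 libraries, at up to 0.00376%. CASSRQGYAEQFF, which has the same V segment, ranged in gut from 0.000493% to 0.0344%. The TRBV14 clonotype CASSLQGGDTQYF was more even in gut, from 0.000595% to 0.0167%, and its mean was higher in liver (0.00924%) than in gut (0.00706%). The TRBV16 clonotype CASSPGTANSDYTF had a mean of 0.00644% in gut and 0.00205% in liver, where 4 libraries held it. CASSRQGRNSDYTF (mean gut frequency 0.0152%), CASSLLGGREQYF (0.0124%), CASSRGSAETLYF (0.00813%), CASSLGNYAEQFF (0.00323%) and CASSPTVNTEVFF (0.00177%) also used TRBV26.

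The CD4 members with the highest mean gut frequency owed it to 1 or 2 libraries. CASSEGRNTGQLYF, with TRBV13-1, made up 0.294% of WT gut numbered 1 and 0.315% of STAT3koPD-1ko gut numbered 2. It made up 0.00192% and 0.000493% of the STAT3ko and STAT3koPD-1ko gut libraries numbered 1 and was listed at 0 in the other two. In liver it was found in 4 libraries, at 0.00472% to 0.0106%. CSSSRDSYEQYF, with TRBV23, made up 0.279% of STAT3ko gut numbered 2 and at most 0.00898% of the 4 other gut libraries that held it. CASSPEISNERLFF (TRBV26) reached 0.257% and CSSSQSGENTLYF (TRBV23) 0.240% in that same library, and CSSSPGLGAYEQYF (TRBV23) reached 0.256% in STAT3koPD-1ko gut numbered 2. These last 4 were found in 1 to 3 liver libraries each, at no more than 0.00314%.

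The CD8 members in all 6 gut libraries included more V segments. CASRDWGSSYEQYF made up 0.00629%, 0.00111% and 0.00370% of the WT, STAT3ko and STAT3koPD-1ko gut libraries numbered 1 and 0.0187%, 0.0278% and 0.0125% of those numbered 2. In the 6 liver libraries it ranged from 0.00156% to 0.00882%, below every gut library numbered 2. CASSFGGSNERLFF (TRBV29) went the other way, with a mean of 0.0488% in liver against 0.0108% in gut, owing to 0.258% in STAT3ko liver numbered 2. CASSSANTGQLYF (TRBV15) had a mean gut frequency of 0.0106%, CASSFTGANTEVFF (TRBV29) 0.0105%, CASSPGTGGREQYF (TRBV13-3) 0.00882%, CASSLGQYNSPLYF (TRBV29) 0.00830% and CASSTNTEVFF (TRBV12-2) 0.00713%. Of these, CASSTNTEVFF and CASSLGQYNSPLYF were found in 5 liver libraries.

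The highest CD8 means each came from a single library. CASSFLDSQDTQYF (TRBV14) made up 0.612% of WT gut numbered 1, 0.00148% and 0.00185% of the STAT3ko and STAT3koPD-1ko gut libraries numbered 1, and was listed at 0 in those numbered 2. Its only liver library was WT numbered 1 (0.0125%). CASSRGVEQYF (TRBV14) made up 0.431% of STAT3koPD-1ko gut numbered 1 and at most 0.00106% of the 4 other gut libraries that held it, and its single liver library was STAT3koPD-1ko numbered 2 (0.0388%). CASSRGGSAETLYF (TRBV17) likewise reached 0.304% in STAT3koPD-1ko gut numbered 1.

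Some members were recurrent in gut and found in no liver library. The CD4 clonotype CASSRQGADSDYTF (TRBV12-2) was in 5 gut libraries at 0.000493% to 0.00304%. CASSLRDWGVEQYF (TRBV5) reached 0.0499% in STAT3ko gut numbered 2 and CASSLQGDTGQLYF (TRBV26) 0.0345% in STAT3koPD-1ko gut numbered 2. In CD8, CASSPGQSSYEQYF (TRBV26) was in all 6 gut libraries at 0.000349% to 0.0102%. In the CD4 table it was in 5 gut libraries, 4 liver libraries and 1 spleen library, and its mean gut frequency was higher there (0.00534%) than in CD8 (0.00305%). For comparison, 15 CD4 and 7 CD8 liver-recurrent clonotypes were in all 6 liver libraries. Those with the highest mean liver frequency among them were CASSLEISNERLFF (TRBV16), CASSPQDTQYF and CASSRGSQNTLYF (both TRBV26) in CD4, all found in 6 liver and 4 gut libraries. In CD8 they were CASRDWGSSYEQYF again, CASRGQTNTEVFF (TRBV15) in 6 liver and 6 gut libraries, and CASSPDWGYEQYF (TRBV5) in 6 liver and 5 gut libraries.

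Members recurred across genotypes. All 3 genotypes held 1106 CD4 members (55.9%) and 1943 CD8 members (54.4%), and every other member was found in 2 genotypes, as the rule requires of 3 libraries with 2 for each genotype. Of the members found in exactly 3 gut libraries, 46.0% in CD4 and 39.4% in CD8 were found once in each genotype. Of the 20 ways to take 3 of the 6 gut libraries, 8 (40%) hold every genotype, although the libraries differ in how many members they hold. The gut of WT held 95.1% of CD4 members, that of STAT3ko 79.3% and that of STAT3koPD-1ko 81.5%. For CD8 the shares were 86.9%, 80.4% and 87.1%. The most common set of exactly 3 libraries in CD4 was that of the 3 libraries numbered 1, with 360 members, or 24.4%, whereas in CD8 the same set held 192, or 7.94%.

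Genotypes were compared in liver, whose values the choice had not used. The summed frequency of the CD4 members in liver numbered 1 was 1.33% in WT, 0.803% in STAT3ko and 0.838% in STAT3koPD-1ko, and in liver numbered 2 it was 3.47%, 3.37% and 3.73%. The genotypes overlapped fully, and the libraries numbered 2 were all higher than those numbered 1. The CD8 members made up 1.61%, 1.21% and 1.62% of the liver libraries numbered 1 and 8.33%, 7.71% and 7.35% of those numbered 2. Genotype accounted for 2.81% of the sum of squares of the log2 values in CD4 and for 0.810% in CD8. With 1 library left out, these shares ranged from 2.55% (without WT numbered 2) to 29.7% (without STAT3ko numbered 2) in CD4. In CD8 they ranged from 12.4% to 27.2% (without the same libraries). Each such choice leaves a genotype with a single number, so that the difference between numbers enters these shares. In an exact permutation test over all 90 assignments of the libraries to genotypes, p was 0.80 in CD4 and 0.867 in CD8 (both 0.867 after Benjamini-Hochberg adjustment over the 2 tables). With 2 libraries for each genotype, the smallest p that this test can give is 0.0667. Every genotype had 1 library of each number, and assignments that put 2 of the same number together take in the difference between numbers. Given that difference, a p near 0.0667 was hardly possible. With assignments kept within each number, p was 0.50 in CD4 and 0.667 in CD8 (both 0.667 after adjustment, exact permutation test, smallest possible p 0.167). A difference between genotypes was not shown, nor was it shown that there is none. The liver libraries numbered 1 are those in which few clonotypes were absent from spleen, and the part of this in the sums was not tested.

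Whether recurrence in gut carried over to a further gut library was asked by leaving each library out. For each of the 12 day 6 libraries, clonotypes absent from spleen were chosen again, in at least 3 of 5 gut libraries and in at least 3 of 5 liver libraries, without the library in question, and the percentage found in it was taken for both choices. In the CD8 gut libraries numbered 1, gut-chosen clonotypes were found less often than liver-chosen ones. The percentages were 37.5% against 64.1% in WT, 36.8% against 61.0% in STAT3ko and 42.8% against 66.4% in STAT3koPD-1ko. In those numbered 2 they were 37.4% against 42.0%, 26.8% against 34.2% and 33.8% against 39.6%. In all 6 CD8 liver libraries gut-chosen clonotypes were found at least as often as liver-chosen ones, at ratios of 1.00 to 1.19. The mean log2 ratio of gut-chosen to liver-chosen was -0.48 ± 0.26 in gut and 0.12 ± 0.10 in liver (SD, n = 6 libraries each).

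In CD4, gut-chosen clonotypes were found less often in 5 of 6 gut libraries and more often in 6 of 6 liver libraries. The percentages were 56.5% against 62.7% in WT, 39.9% against 51.3% in STAT3ko and 42.0% against 56.2% in STAT3koPD-1ko gut numbered 1, and 32.2% against 30.7%, 13.8% against 14% and 10.9% against 11.3% in those numbered 2. The mean log2 ratio was -0.16 ± 0.20 in gut and 0.21 ± 0.08 in liver. The gut value minus the liver value was -0.37 in CD4 and -0.60 in CD8. In an exact two-sided permutation test over all assignments of the libraries to the tissues, with the choice repeated in each, p was 0.0801 and 0.0325, and 0.0801 and 0.0649 after Benjamini-Hochberg adjustment over the 2 tables. Neither passed 0.05, so that no preference of gut-chosen clonotypes for gut was found, and the estimates pointed the other way. With at least 2 libraries in place of 3 the differences were -0.67 and -0.83 (adjusted p = 0.0216 for both, exact permutation test). Without the libraries numbered 1 among those left out the differences were -0.16 and -0.39, and without those numbered 2 they were -0.57 and -0.80.

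**Figure D4:**
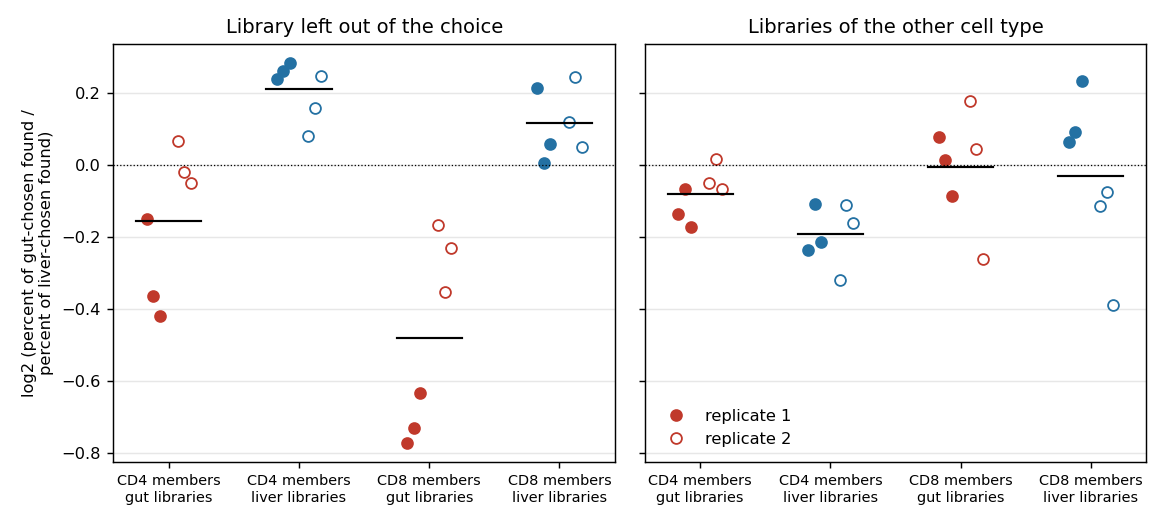
Log2 ratio of the percentage of gut-chosen to the percentage of liver-chosen clonotypes found in a library (y axis), with each point a library (filled, number 1; open, number 2) and the bar the mean of 6. On the left the library was left out of the choice, and on the right members of a cell type were looked up in the libraries of the other; the CD8 gut libraries on the left, at -0.77 to -0.17, all lie below the CD8 liver libraries, at 0.01 to 0.25.

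Gut and liver libraries of the same genotype shared members in a particular pairing. Among CD4 members found in the gut library numbered 1 of a genotype, 49.5% ± 4.74 (SD, n = 3 genotypes) were found in the liver library numbered 2 of that genotype, against 22.6% of the members not found in that gut library. In CD8 these values were 53.1% ± 2.09 and 14.4%. For a gut library numbered 1 of another genotype, they were 42.4% and 42.2% in CD4 and 37.5% and 39.3% in CD8. For the gut library numbered 2 of the same genotype they were 42.2% and 42.3% in CD4 and 37.8% and 38.7% in CD8. The liver libraries numbered 1 showed the same pairing with gut numbered 1, at 28.0% against 11.6% in CD4 and 25.1% against 7.77% in CD8. The pairing involved only the gut libraries numbered 1, in which the liver-chosen clonotypes above were found most often, and its part in the test was not tested. The sources used here do not say whether the gut and liver libraries of a genotype were pooled from the same recipients. The permutation test takes the 12 libraries as separate, and its p-values would not hold as given if some of them share recipients.

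**Figure D5:**
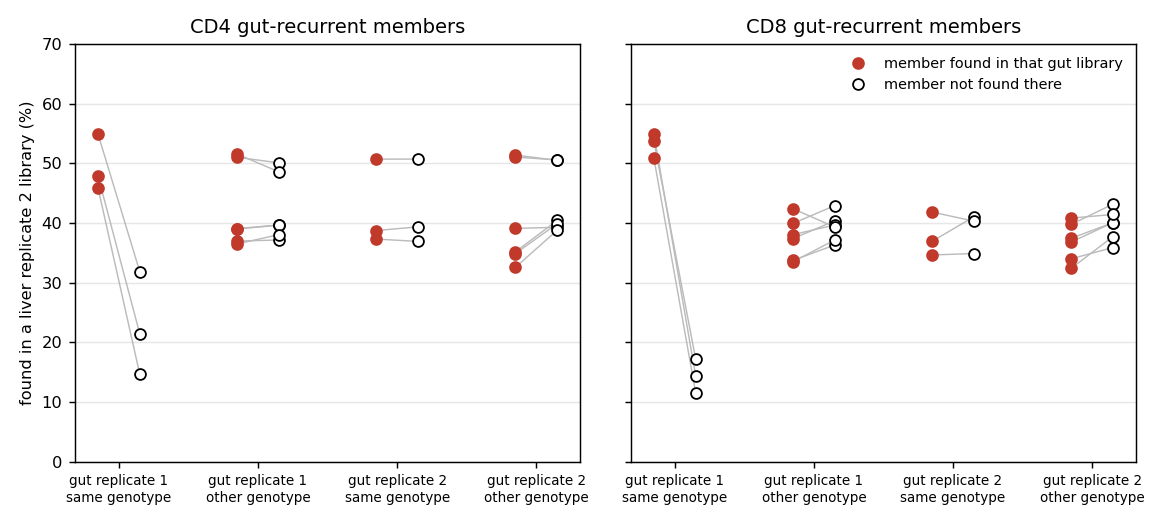
Percentage of gut-recurrent members found in a liver library numbered 2 (y axis), for members found (filled) and not found (open) in a given gut library; lines join the values of a pair of libraries. In the first position, gut number 1 of the same genotype, the mean values were 53.1% and 14.4% in CD8 and 49.5% and 22.6% in CD4, whereas the other positions overlap.

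The libraries of the other cell type took no part in the choice. With the same V, J and CDR3, 278 CD4 members (14.1%) were listed in the CD8 table, against a background of 10.3% for CD4 clonotypes absent from spleen and in at least 2 gut libraries. Of the CD8 members, 617 (17.3%) were listed in the CD4 table, against a background of 13.3%. Spleen libraries of the other cell type held 103 of the CD4 members (5.21%), compared with 3.50% of clonotypes of exactly 2 gut libraries and 2.03% of all absent from CD4 spleen. They held 326 of the CD8 members (9.12%), compared with 5.32% and 3.05%. Gut-recurrent clonotypes shared by CD4 and CD8 numbered 41, which is 2.07% of the CD4 and 1.15% of the CD8 members. Of all clonotypes absent from spleen, 0.552% in CD4 and 0.326% in CD8 were members in the other table. Liver-recurrent clonotypes were listed in the other table at 15.5% in CD4 and 18.4% in CD8, close to the members. A CD8 gut library held 5.27% ± 1.07 of the CD4 members and a CD8 liver library 3.75% ± 0.717 (SD, n = 6 each). The liver-recurrent CD4 clonotypes were found there at 5.62% ± 1.36 and 4.31% ± 1.00.

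The log2 ratio of these percentages, gut-recurrent over liver-recurrent, was -0.08 ± 0.07 in CD8 gut and -0.19 ± 0.08 in CD8 liver libraries. The gut value was thus 0.11 higher (p = 0.0260, adjusted p = 0.0519, exact two-sided permutation test), which did not pass 0.05 after adjustment. For CD8 members in the CD4 libraries the ratio was -0.00 ± 0.15 in gut and -0.03 ± 0.22 in liver, a difference of 0.03 (p and adjusted p = 0.810, exact permutation test). Counting only frequencies above 0.001% as found, the CD4 difference was -0.04, and without single libraries it ranged from 0.09 to 0.13. The adjusted p passed 0.05 when STAT3koPD-1ko gut numbered 1 (0.0260), STAT3ko liver numbered 1 (0.0346) or STAT3ko liver numbered 2 (0.0346, exact permutation test) was left out.

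The CD8 members with TRBV26 stood apart in this lookup. Of these 139, 111 (79.9%) were listed in the CD4 table, compared with 14.7% of the other CD8 members, and 63 were in a CD4 spleen library. TRBV26 clonotypes in the CD8 table were often listed in the CD4 table whether recurrent or not. The share was 42.4% of those absent from CD8 spleen and 63.0% of those that were also in exactly 2 gut libraries. Of the 111, 108 were found in CD4 gut, and 73 had a higher mean gut frequency in CD4 than in CD8. Their median mean gut frequency was 0.000835% in CD8 and 0.00242% in CD4. Other CD8 members listed in CD4 had 0.00148% and 0.000328%. In the gut library of the same genotype and number, 67.1%, 63.2% and 48.9% of the TRBV26 members found in WT, STAT3ko and STAT3koPD-1ko CD8 gut numbered 1 were also found in CD4, and 41.6%, 10% and 13.6% in those numbered 2. For the other CD8 members these shares lay between 1.84% and 5.56%. In CD8 liver, 63.3% of the CD8 TRBV26 members were found, against 86.5% of the others. A lower share was not particular to the members: it was 76.8% for all TRBV26 clonotypes absent from CD8 spleen, against 88.1% of the others, and 35.1% for TRBV26 clonotypes of exactly 2 gut libraries. Among the sequences above, the CD8 member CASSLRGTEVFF, which made up 0.104% of STAT3koPD-1ko CD8 gut numbered 1, was found in 5 CD4 gut libraries with a mean of 0.00741%. The reverse did not hold, as 13.5% of CD4 TRBV26 members and 14.6% of other CD4 members were listed in the CD8 table. TRBV26 members held 0.102% to 0.325% of the reads of a CD8 gut library. Carry-over between the CD4 and CD8 samples, in the sort or in the libraries, was not tested.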

How the data were processed

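The TCRB repertoires of sorted donor T cells were sequenced. The authors prepared libraries from RNA with a commercial template-switching kit, called CDR3 clonotypes with MiXCR at default settings and joined the libraries of a table with VDJtools (mm10, per the labels). The deposited values are fractions of the reads of a library. The deposited tables, per the file headers, also hold other columns, of which the number of joined libraries and segment positions were used. Only clonotypes counted in at least 2 of the 18 joined libraries are listed, and 3 joined libraries were not analysed here.

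Groups came from the labels: 3 spleen, 6 gut and 6 liver libraries in each table. The methods describe 2 batches of pooled mice but do not link them to these numbers, so p-values measure the spread between these libraries only. The members and lists were chosen with earlier results of these data known. A clonotype was found at a frequency above 0. The CDR3 of TRBV26 clonotypes was trimmed to the conserved cysteine. Germline V and J bases were matched from both ends to GENCODE M21 transcripts, with at least 6 bases at each end, for 96.5% of CD4 and 98.3% of CD8 clonotypes. Cell types were matched on V, J and CDR3.

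Named clonotypes were, in each table, the 10 found in the most gut libraries (ties by mean gut frequency) and the 5 with the highest mean gut frequency. The 3 most recurrent in no liver library (same ties) and the 3 liver-recurrent ones in the most liver libraries (ties by mean liver frequency) were added. Those with a CDR3 of 15 or more amino acids, and a CD8 clonotype in no liver library whose letters read as bases, are not printed. Named segments made up at least 5% of members or are bound by superantigens, except TRBV1, TRBV13-2, TRBV20 and TRBJ1-5, which were chosen after their shares were seen. Exact permutation tests over libraries with Benjamini-Hochberg adjustment over 2 tables used Python 3 with numpy. The leave-out test was also run on simulated presence patterns with independent libraries. These left out the pairing of gut and liver libraries, so they do not show that its p-values hold here. Alternatives changed the rule, the libraries and the replicate block. The depth is unknown.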

Additional observations from a re-analysis of the deposited data

Results flagged for a closer look

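The deposited tables count the joined libraries that held a clonotype, 3 of which were not analysed here. By this count, 1022 CD4 members (51.7%) and 2161 CD8 members (60.5%) were also held by at least 1 of these 3 libraries. The shares were 34.7% and 35.9% among clonotypes of exactly 2 gut libraries, and 66.4% and 78.6% among liver-recurrent ones. Among all clonotypes absent from spleen they were 53.0% and 50.3%, but this set includes clonotypes of a single analysed library, which have to be in another joined library to be listed. What these libraries contain was not examined, and no test was made. In 16 groups of 6 libraries, no single library passed Dixon's test for an outlier, which does not detect the separation of 3 libraries from 3 by number.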

How the results depend on the processing

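The number of clonotypes chosen depended strongly on the rule. In place of 1978 CD4 clonotypes, gut recurrence gave 8471 in at least 2 libraries, 501 in at least 4, 880 when only frequencies above 0.001% counted and 905 among CDR3 sequences deposited from C to F, W or L, which leaves out TRBV26. Without a single library there were 823 (without WT numbered 1) to 1694. In place of 3574 CD8 clonotypes there were 13039, 1155 and 1346 for the first 3 of these settings, and 2151 to 2695 without a single library. Liver recurrence in CD4 (1727) gave 7940, 447, 580 and 1042, and 782 to 1324 without a single library. In CD8 (1410) it gave 6477, 322 and 482, and 649 to 1089. Libraries of a single number, chosen after seeing the data, gave 4730 (number 1) and 957 (number 2) in CD4 gut, 5002 and 3572 in CD8 gut, 1083 and 3917 in CD4 liver, and 847 and 3185 in CD8 liver. A left-out library also lowers the number of libraries that can meet the rule.

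The leave-out contrast was negative in both tables in all alternatives run. In CD8 it passed 0.05 at frequencies above 0.001% (-0.75, adjusted p = 0.0476), and with at least 2 libraries it passed in both tables (-0.67 and -0.83, exact permutation tests). In the other cell type, the CD4 contrast ranged from 0.0864 to 0.131 without a single library and was -0.0363 at frequencies above 0.001%. With summed frequencies it was 0.17, and it was 0.0604 without the libraries numbered 2 and 0.16 without those numbered 1. The CD8 contrast was -0.13 without the libraries numbered 2, 0.18 without those numbered 1 and 0.31 with summed frequencies, and ranged from -0.0453 to 0.0793 without a single library, and was below 0 without STAT3koPD-1ko liver numbered 2 or WT gut numbered 2. The genotype comparison cannot reach 0.05 with these libraries, so its alternatives say nothing about stability.

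With the replicate block, the leave-out contrasts stayed at -0.37 and -0.60 (adjusted p = 0.188 for both) and those in the other cell type at 0.11 and 0.03 (adjusted p = 0.0625 and 0.719, exact permutation tests). The smallest p this block can give is 0.0313. Same-numbered gut and liver libraries of a genotype did not deviate together but weakly in opposite directions, with correlations of -0.162 to -0.0500 in CD4 and -0.267 to -0.185 in CD8. Between gut and liver libraries of different genotypes the correlations were 0.0610 to 0.126 in CD4 and 0.0791 to 0.0996 in CD8. Crossing the numbers, chosen after seeing the data, gave no call either. The cause of these shifts was not tested. Depth is unknown, so a clonotype listed at 0 may have been missed.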
